A study of Mus musculus with 8 samples.

Results

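The PYHIN genes described here are 9 interferon-inducible genes of mouse chromosome 1, taken by symbol from gene-level read counts: Aim2, Ifi203, Ifi204, Ifi206, Ifi207, Ifi208, Ifi209, Ifi213 and Mndal. They are 9 of the 55401 genes listed in each of 8 RNA-seq libraries. All libraries came from the spleen of C57BL/6 mice and form 4 groups of 2. Germinal center (GC) B cells sorted by FACS came from mice labelled Jmjd1c B KO and from wild-type (WT) mice. Activated B cells, enriched with a pan-B reagent and beads and then stimulated in vitro, came from the same 2 genotypes. Jmjd1c belongs to a family of genes for histone H3K9 demethylases. The sources used here do not give the Cre driver, the deleted exons, the age of the mice or the stimulus. The members were picked because the knockout groups and WT groups were known to differ in them, with Ifi208 set against Ifi203 and Mndal. Their levels and fold changes are therefore a description, printed without p-values.

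PYHIN proteins carry an N-terminal pyrin domain, a HIN-200 domain that binds DNA, or both. Aim2 binds double-stranded DNA in the cytosol and assembles the inflammasome with the adaptor Pycard and caspase-1. The other family members are mostly nuclear, and Ifi204, also called p204, is known from macrophages, where it takes part in DNA sensing and differentiation. The family is induced by type I interferon, which acts through the interferon-stimulated response element, a promoter motif built of repeated GAAA. RefSeq lists Pydc3 and Pydc4 (pyrin domain containing) as other names of Ifi208 and Ifi213, and Pyhin1 and Ifix as other names of Ifi209.

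Promoter sequences from RefSeq (GRCm38.p6, from 250 bases before to 50 bases after each annotated start) were found for 8 of the 9 members, Ifi204 being the one not matched. Stretches of 6 are shown, because 3 of them, with nearly the same promoter, had different values in the knockout; those of Mndal and Aim2 are not printed. Each line is 5′ to 3′ on the strand of its gene and lies before the annotated start, which for Ifi203 is the start with the lower coordinate of the 2 that RefSeq gives. The capitals mark the motif GAAATCGAAA or, in Ifi209, the aligned bases.
Ifi208, chr1:173673517-173673640, plus strand: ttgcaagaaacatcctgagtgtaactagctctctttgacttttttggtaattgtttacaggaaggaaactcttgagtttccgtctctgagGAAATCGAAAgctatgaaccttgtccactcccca
Ifi206, chr1:173491325-173491448, minus strand: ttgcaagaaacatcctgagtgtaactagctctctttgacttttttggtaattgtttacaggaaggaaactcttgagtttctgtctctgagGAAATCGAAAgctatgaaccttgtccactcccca
Ifi213, chr1:173599312-173599435, minus strand: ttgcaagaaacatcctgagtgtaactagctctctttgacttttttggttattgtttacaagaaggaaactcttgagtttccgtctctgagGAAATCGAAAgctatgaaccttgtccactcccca
Ifi207, chr1:173741817-173741940, minus strand: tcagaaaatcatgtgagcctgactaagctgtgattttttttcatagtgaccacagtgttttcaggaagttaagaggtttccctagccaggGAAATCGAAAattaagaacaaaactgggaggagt
Ifi203, chr1:173942494-173942617, minus strand: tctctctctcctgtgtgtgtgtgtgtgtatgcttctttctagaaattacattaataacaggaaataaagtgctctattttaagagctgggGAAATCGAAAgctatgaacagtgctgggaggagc
Ifi209, chr1:173630690-173630813, plus strand: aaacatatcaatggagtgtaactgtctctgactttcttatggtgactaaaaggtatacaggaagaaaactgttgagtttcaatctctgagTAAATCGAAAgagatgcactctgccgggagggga

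Over the 124 bases shown, Ifi206 differs from Ifi208 at 1 base (C81T, counted from the first base of the Ifi208 line) and Ifi213 at 2 bases (A49T and G60A). Over the best-scoring local alignments of the promoters, Ifi208 matched Ifi206 at 279 of 281 bases and Ifi213 at 282 of 285. Mndal and Ifi203 form another like pair, with 282 of 289 aligned bases identical. The motif GAAATCGAAA is a word taken from the Ifi208 promoter, so its presence there was given in advance. Its presence in the near copies Ifi206 and Ifi213 is not separate evidence. Searched on both strands, the motif was present in 6 of the 8 members: Ifi206, Ifi213, Ifi208, Ifi207, Mndal and Ifi203. It was present in 0.0592% of the 27025 genes with a promoter in the table, which is 16 genes, 7 of them of the PYHIN family. Ifi209 differs from the motif by G1T, counted from its first base. The wider pattern GAAANNGAA, which overlaps it, was found in the same 6 members and in 9.76% of genes, and with a further A at its end in the same 6 members and in 3.99% of genes. TTCNNNGAA, the interferon-gamma activated site, matched no member and 9.55% of genes. A match or its absence describes the letters in this window and no more.

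Similar genes limit what a count of reads can tell. Of all runs of 50 bases in the annotated transcripts of Ifi208, 20.9% also occur in transcripts of another gene, mainly Ifi213 and Ifi206. The share was 25.6% for Ifi206, 15.6% for Ifi213, 33.8% for Ifi209, 20.0% for Ifi204, 19.6% for Mndal, 12.4% for Ifi203, 7.29% for Ifi207 and 0.742% for Aim2. Of the 5255 such runs of Ifi208, 4157 occur in no other gene. Mndal overlaps Ifi203 and the pseudogene Gm38050 on the same strand in GENCODE M21, in 4.27% of its exon length, and part of those reads can be lost as ambiguous. The sources used here do not say how reads that fit several genes were counted, and levels of single members are uncertain to that extent.

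The libraries held 8777425 to 11414559 counts on genes, so 1 CPM (1 count per 1000000 counts on genes) rests on 8.78 to 11.4 counts. The members together took between 0.0399% and 0.203% of these counts. Levels are CPM scaled by TMM over all 8 libraries, which corrects for differences in library composition. The targeted gene Jmjd1c had 163 and 158 CPM in KO GC B cells, against 194 and 178 CPM in WT. It had 136 and 153 CPM in KO activated B cells, against 274 and 282 CPM in WT. Both KO groups lay below their WT groups, by a log2 fold change of -0.20 (SE 0.04) in GC and -0.94 (SE 0.06) in activated B cells. The drop was thus much smaller in GC B cells, and the reason was not tested. Counts over the whole gene include any exon that remains. The labels do not say that replicates came from separate mice, so the spread between them may be technical. In bulk RNA, a change in how many cells of a kind were in a sample and a change in transcripts per cell cannot be told apart.

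In GC B cells, most PYHIN transcripts were several times higher in KO than in WT libraries, while Aim2 differed by 1.24-fold. Ifi203 had 270.1 and 278 CPM in KO, against 46.8 and 41.2 CPM in WT, a log2 fold change of 2.65 (SE 0.05). Mndal, a nuclear member of the family, had 413 and 432 CPM in KO, against 64.3 and 64.2 CPM in WT (log2 fold change 2.72, SE 0.05). Both KO libraries lay far above both WT libraries in each gene. Ifi206 had 60.8 and 66.4 CPM in KO, against 7.12 and 9.20 CPM in WT (log2 fold change 2.95, SE 0.11). Ifi213 had 91.0 and 86.3 CPM in KO, against 10.9 and 10.3 CPM in WT (log2 fold change 3.07, SE 0.10), the highest among the members tested. These 4 genes differed by between 6.27-fold and 8.39-fold.

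Aim2, Ifi209 and Ifi208 differed less in GC B cells. Aim2, the cytosolic DNA sensor, had 136 and 134 CPM in KO, against 109.6 and 108 CPM in WT (log2 fold change 0.31, SE 0.05). Ifi209 had 316 and 329.7 CPM in KO, against 186 and 179 CPM in WT (log2 fold change 0.83, SE 0.04). Ifi208 had 53 and 48 counts in KO, against 29 and 32 in WT, or 6.44 and 5.70 CPM against 3.04 and 2.91 CPM (log2 fold change 1.03, SE 0.26). KO lay above WT in each library of these 3 genes, as in the 4 before, and both KO libraries lay above both WT libraries in 35.7% of all genes tested and below them in 37.0%. Ifi207 and Ifi204 were close to the limit of detection and did not pass the filter on low counts. Ifi207 had 9 and 3 counts in KO, against 1 and 0 in WT, a ratio of 14.8 with an exact 95% counting interval of 2.19 to 633. Ifi204 had 2 and 4 counts in KO, against 1 and 0 in WT, a ratio of 7.40 with an interval of 0.898 to 341. By edgeR's quasi-likelihood test at an adjusted p under 0.05, all 7 members tested were called higher, where 25.1% of all 13350 genes tested were called higher and 25.1% lower. The members were chosen on this contrast, so nothing is read from that count.

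**Figure D1:**
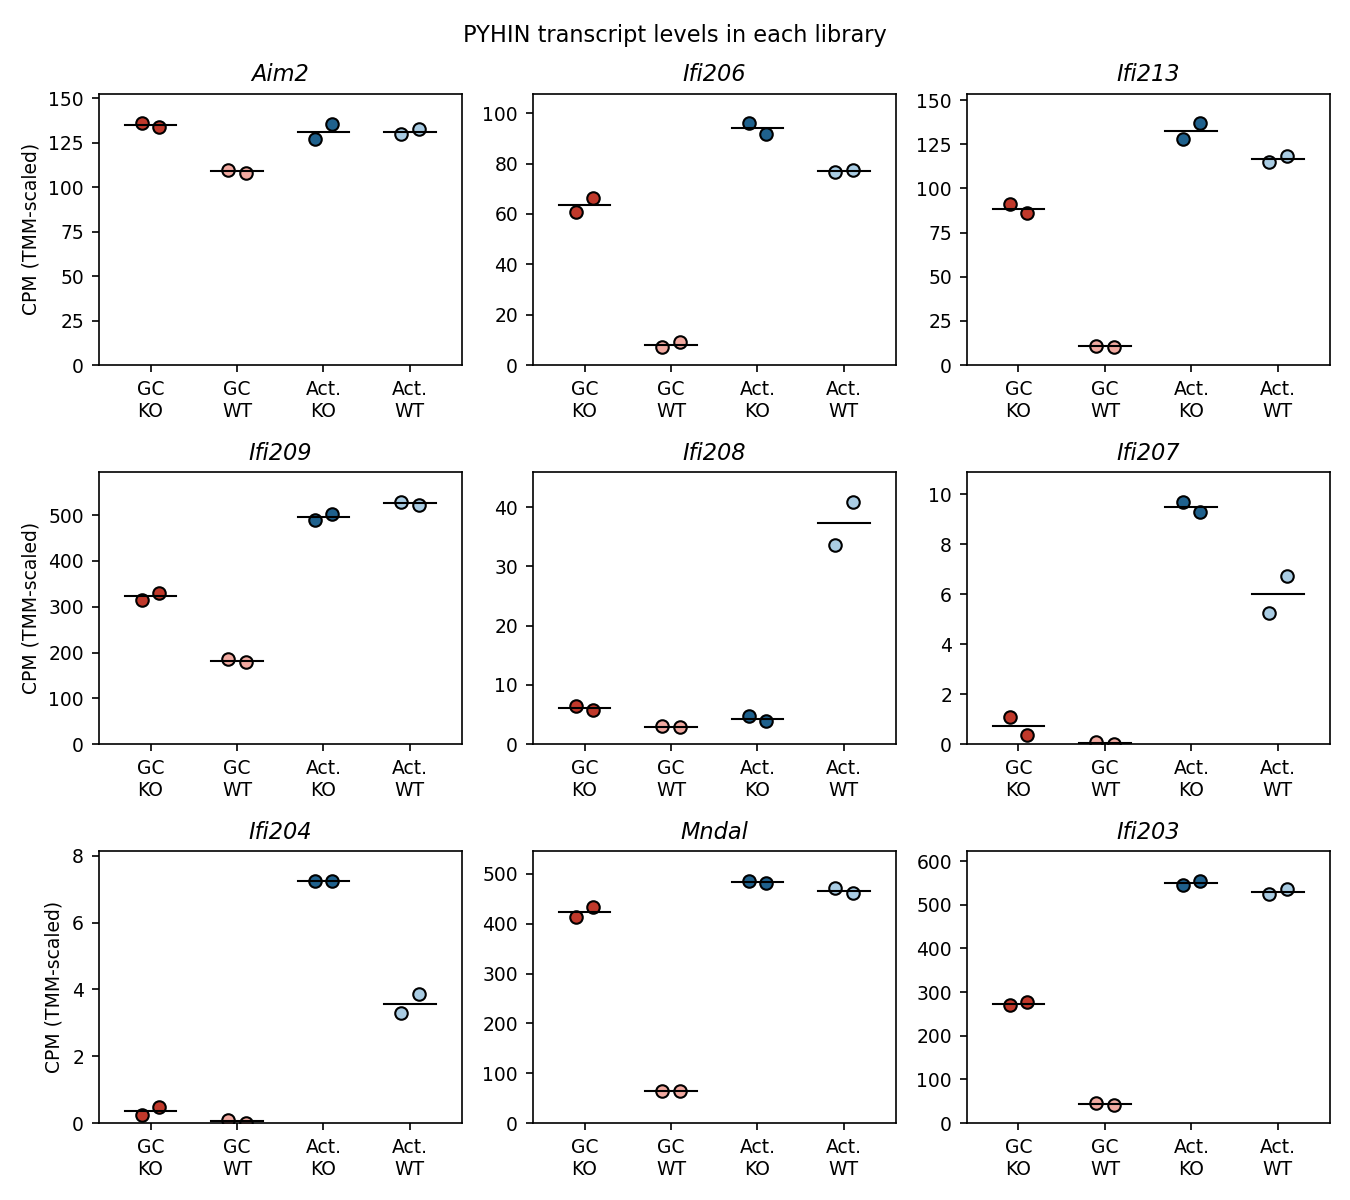
TMM-scaled CPM of each PYHIN gene on a linear axis from 0, with 1 point per library, a line at the mean of the 2 libraries, and GC for germinal center and Act. for activated B cells. In Ifi203, Mndal, Ifi206 and Ifi213 the WT GC libraries stand far below the other 3 groups, while in Ifi208 the WT activated libraries, at 33.7 and 41.0 CPM, stand far above the other 3.

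In activated B cells the order was different, and Ifi208 was the member that stood apart. Ifi208 had 46 and 39 counts in KO, against 327 and 414 in WT. This is 4.70 and 3.93 CPM in KO, against 33.7 and 41.0 CPM in WT (log2 fold change -3.11, SE 0.15), or 8.63-fold lower in KO. Its neighbours with nearly the same promoter did not share this. Ifi206 had 96.2 and 91.6 CPM in KO, against 76.7 and 77.3 CPM in WT (log2 fold change 0.29, SE 0.07). Ifi213 had 128 and 137 CPM in KO, against 115 and 118 CPM in WT (log2 fold change 0.19, SE 0.06). In both genes each KO library lay slightly above each WT library, opposite to Ifi208. Both KO libraries lay above both WT libraries in 24.2% of all genes tested in activated B cells and below them in 23.6%.

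The abundant members were nearly level between genotypes in activated B cells. Ifi203 had 544 and 555 CPM in KO, against 526 and 535 CPM in WT (log2 fold change 0.05, SE 0.05). Mndal had 486 and 482 CPM in KO, against 471 and 462 CPM in WT (log2 fold change 0.06, SE 0.05). Ifi209 had 489 and 503 CPM in KO, against 529.6 and 522 CPM in WT (log2 fold change -0.08, SE 0.05). The fold changes of these 3 genes are within about 2 SE of 0. Aim2 had 127 and 135 CPM in KO, against 129.8 and 133 CPM in WT, and its values overlapped between the genotypes.

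The least abundant members leaned the other way from Ifi208. Ifi204, the macrophage-associated p204 gene, had 71 and 72 counts in KO, against 32 and 39 in WT (log2 fold change 1.02, SE 0.22). Ifi207 had 95 and 92 counts in KO, against 51 and 68 in WT (log2 fold change 0.66, SE 0.18). KO values lay above WT values in both. The 15 monocyte and macrophage markers summed to 1380 to 1502 CPM in KO, against 875 to 920.3 CPM in WT, with none of the 15 at 0 in either group. Of 11 tested, 6 rose and 5 did not pass, and the sum was led by Lyz2, also made by neutrophils, at 825 CPM in KO and 434 CPM in WT on average. The 7 neutrophil markers all rose by edgeR and summed to 1473 to 1814 CPM in KO, against 387 to 452 CPM in WT. The part of these cells in the values of Ifi204 and Ifi207 was not tested. By edgeR, 3 members (Ifi204, Ifi206 and Ifi207) were called higher, where 4.85% of 14110 genes were, and Ifi208 was called lower, where 1.42% were. The calls of Ifi204, Ifi206 and Ifi207 were lost with DESeq2. In the alternative runs the log2 fold change of Ifi208 ranged from -3.25 to -2.96. Those runs use the same libraries on which Ifi208 was chosen, so they are not separate evidence.

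**Figure D2:**
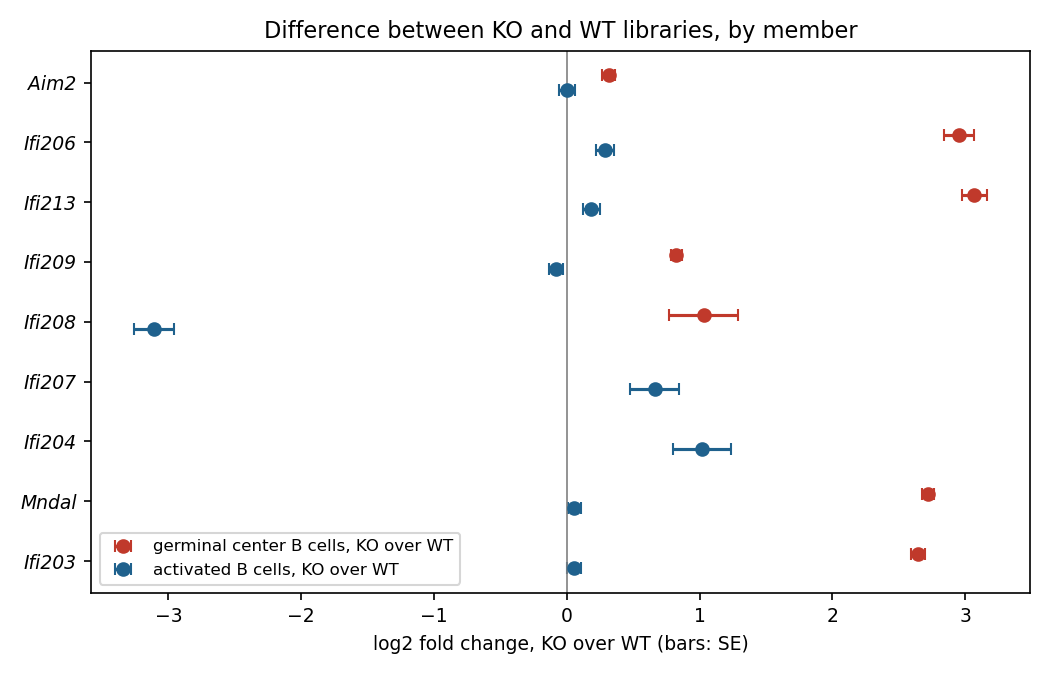
Log2 fold change of KO over WT for each member, in the order of the genes along the chromosome, with bars of 1 SE. Ifi208 lies at -3.11 in activated B cells and at 1.03 in GC B cells, and Ifi204 and Ifi207 have no GC point because their counts were too low.

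The ratio of 2 genes within a library does not depend on scaling between libraries. Ifi208 over Ifi213 was 0.0709 and 0.0661 in KO GC B cells, against 0.279 and 0.283 in WT GC B cells. It was 0.0368 and 0.0286 in KO activated B cells, against 0.293 and 0.346 in WT. The mean WT ratio was 0.281 in GC and 0.319 in activated B cells, although Ifi208 was 12.6-fold lower in WT GC than in WT activated B cells. The mean ratio was 4.10-fold lower in KO than in WT GC B cells and 9.77-fold lower in KO than in WT activated B cells. Against Ifi206 the ratio was 0.106 and 0.0859 in KO GC B cells and 0.426 and 0.317 in WT GC B cells. It was 0.0488 and 0.0429 in KO activated B cells and 0.439 and 0.530 in WT activated B cells. So Ifi208 was lower relative to both genes in both KO groups, also in GC B cells, where its own CPM was higher in KO. These ratios were chosen after the values were seen and are given without a test.

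**Figure D3:**
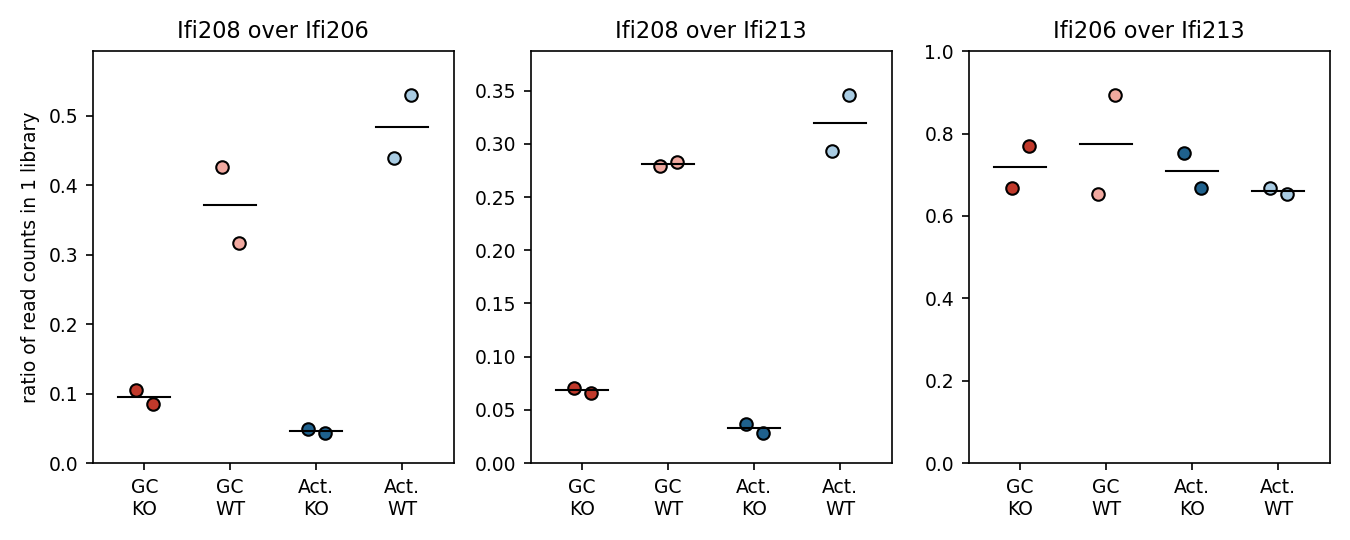
Ratio of read counts of 2 genes within each library, on a linear axis from 0, with 1 point per library and a line at the group mean. Ifi208 over Ifi206 and over Ifi213 is lower in both KO groups than in both WT groups, while Ifi206 over Ifi213 lies between 0.652 and 0.894 in all 8 libraries.

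The 2 pairs of members with like promoters and no Ifi208 differed little in their ratio between genotypes. Ifi206 over Ifi213 averaged 0.719 ± 0.0718 in KO and 0.774 ± 0.170 in WT GC B cells (SD, n = 2 each). It averaged 0.710 ± 0.0605 in KO activated B cells and 0.660 ± 0.0107 in WT (SD, n = 2 each). Mndal over Ifi203 averaged 1.54 ± 0.0197 in KO and 1.47 ± 0.132 in WT GC B cells (SD, n = 2 each). It averaged 0.881 ± 0.0177 in KO and 0.879 ± 0.0233 in WT activated B cells (SD, n = 2 each). This ratio hardly differed by genotype and was higher in GC than in activated B cells. Of the pairs with unlike promoters, 2 are given here, and these differed in GC B cells. This does not hold for all unlike pairs. Ifi206 and Mndal, with 45 of 59 bases identical in their best-scoring local alignment, had close log2 fold changes in GC B cells, 2.95 and 2.72. Ifi209 over Ifi203 was 1.18 ± 0.0128 in KO and 4.16 ± 0.272 in WT GC B cells (SD, n = 2 each), and 0.903 ± 0.00509 in KO and 0.991 ± 0.0233 in WT activated B cells (SD, n = 2 each). Aim2 over Ifi203 was likewise lower in KO GC B cells, at 0.493 ± 0.0163 in KO and 2.48 ± 0.204 in WT GC B cells (SD, n = 2 each), while in activated B cells it was 0.239 ± 0.00742 in KO and 0.247 ± 0.000711 in WT (SD, n = 2 each).

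Without the knockout, PYHIN transcripts were scarcer in GC than in activated B cells, by very different amounts. Aim2 differed least, at 108.9 ± 0.995 CPM in WT GC B cells and 131 ± 2.09 CPM in WT activated B cells (SD, n = 2 each; log2 fold change -0.28, SE 0.06). Ifi209 was next, with a log2 fold change of -1.54 (SE 0.05). Mndal (-2.87, SE 0.06), Ifi206 (-3.24, SE 0.10), Ifi213 (-3.47, SE 0.09), Ifi203 (-3.61, SE 0.06) and Ifi208 (-3.66, SE 0.16) were all several-fold lower in GC B cells on the log2 scale. Ifi207 had 1 count over both WT GC libraries and 119 over both WT activated libraries, a ratio of 0.00811 with an exact 95% counting interval of 0.000204 to 0.0461. Ifi204 had 1 and 71 counts over the same libraries, a ratio of 0.0136 with an interval of 0.00034 to 0.0782. All 9 members were called lower in WT GC B cells by edgeR, where 41.8% of 14426 genes were called lower and 40.3% higher. The rule for the members speaks of all 4 groups, so this count too is only a description.

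Ranked by mean level, 6 members had the same order of the 4 groups: KO activated, WT activated, KO GC and WT GC B cells. These were Ifi203, Mndal, Ifi206, Ifi213, Ifi207 and Ifi204, and no neighbouring groups in that order overlapped in their 2 libraries. The same order without overlap was found in 5.25% of all 14992 genes tested, and the rule for the members used these values. For Ifi203 and Mndal the first 2 groups lay within 1.04-fold of each other. Ifi209 had the order WT activated, KO activated, KO GC and WT GC B cells. Aim2 had its highest mean in KO GC B cells and its lowest in WT GC B cells. Its KO GC libraries, at 136 and 134 CPM, overlapped its KO activated libraries, at 127 and 135 CPM. The 2 activated groups of Aim2 overlapped as well. In Ifi208 WT activated B cells came first by a wide margin, followed by KO GC, KO activated and WT GC B cells at 6.07 ± 0.523, 4.31 ± 0.544 and 2.98 ± 0.0879 CPM (SD, n = 2 each).

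The KO effect was set against itself between the cell types in 1 fit over all 8 libraries, as the log2 fold change in GC B cells minus that in activated B cells. This difference was 4.14 (SE 0.30) for Ifi208, with 2 effects of opposite sign. It was 2.88 (SE 0.11) for Ifi213, 2.66 (SE 0.13) for Ifi206, 2.66 (SE 0.07) for Mndal and 2.59 (SE 0.08) for Ifi203. In these 4 genes nearly all of the difference came from GC B cells. Ifi209 had a difference of 0.90 (SE 0.07) and Aim2 of 0.31 (SE 0.08). Ifi207 (2.91, SE 1.09) and Ifi204 (1.58, SE 1.23) rest on the few GC counts given above. By edgeR, 8 of the 9 members were called higher for this difference, all but Ifi204, where 17.5% of 14992 genes were called higher and 13.8% lower. As before, the members were chosen on these effects.

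Per length, the family was carried by 4 genes. CPM per kb of exon, which allows levels of different genes to be compared, summed over the 9 members to 322 ± 7.58 in KO and 112 ± 1.88 in WT GC B cells (SD, n = 2 each). For activated B cells the sum was 449 ± 4.62 in KO and 445 ± 0.225 in WT (SD, n = 2 each). KO GC B cells thus stood between WT GC and activated B cells in the summed level. Ifi209 took 28.2% of the sum in KO and 46.1% in WT GC B cells, and Aim2 took 11.98% in KO and 27.8% in WT. Mndal took 36.2% in KO and 15.9% in WT GC B cells, and Ifi203 12.7% in KO and 5.87% in WT. The make-up of activated B cells was alike in both genotypes: Ifi209 took 31.2% in KO and 33.3% in WT, and Mndal 29.8% in KO and 28.8% in WT. Which of these genes led in activated B cells depended on the length used. With the longest transcript as length, Mndal took 36.4% in KO and 35.4% in WT, and Ifi209 22.0% in KO and 23.5% in WT. Ifi203 took 18.3% in KO and 17.8% in WT, and Aim2 8.35% in KO and 8.42% in WT. Ifi208 was a minor member everywhere, at 0.359% in KO and 0.507% in WT GC B cells, and 0.183% in KO and 1.59% in WT activated B cells.

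**Figure D4:**
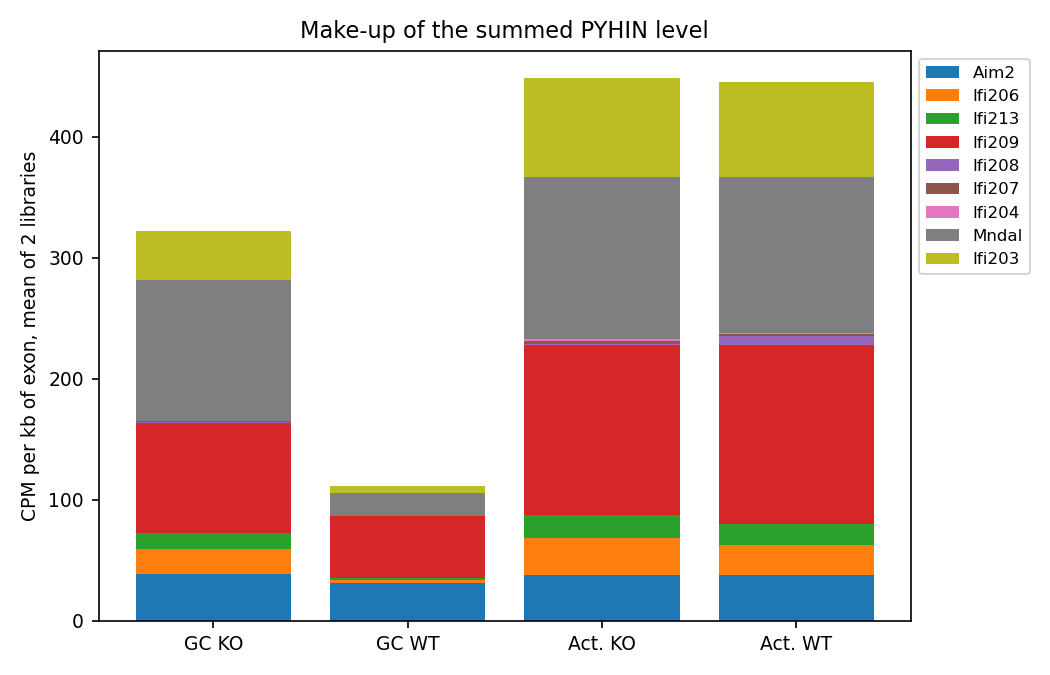
Mean CPM per kb of exon of the 9 PYHIN genes, stacked, for KO and WT germinal center (GC) and activated (Act.) B cells, 2 libraries per bar. The WT GC bar is the lowest, at 112, and is made mostly of Ifi209 and Aim2, while the 2 activated bars are alike in height and make-up.

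The cluster spans 592 kb of chromosome 1 (173350879 to 173942672, GRCm38) in the order Aim2, Ifi206, Ifi213, Ifi209, Ifi208, Ifi207, Ifi204, Mndal and Ifi203. Aim2, Ifi209 and Ifi208 lie on the plus strand and the others on the minus strand. In GC B cells Ifi206, Ifi214 and Ifi213 lie side by side at 2.95, 2.93 and 3.07 on the log2 scale, followed by Ifi209 at 0.83 and Ifi208 at 1.03. In activated B cells Ifi208 (173673675 to 173698395) lies between Ifi209 (173630917 to 173647928), at -0.08, and Ifi207 (173723427 to 173741747), at 0.66 on the log2 scale. Of 10 other annotated genes in the span, 2 PYHIN genes had enough counts to test in GC B cells. Ifi214, between Ifi206 and Ifi213, had 28.9 and 30.5 CPM in KO, against 3.88 and 3.92 CPM in WT GC B cells (log2 fold change 2.93, SE 0.16, edgeR adjusted p = 1.32e-71). Ifi211, which lies inside the annotated span of Mndal on the same strand, had 3.65 and 3.68 CPM in KO, against 0.524 and 0.364 CPM in WT (log2 fold change 3.03, SE 0.46, edgeR adjusted p = 2.05e-10). Neither passed in activated B cells, where Ifi214 had a log2 fold change of 0.00083 (SE 0.08, adjusted p = 0.996) and Ifi211 of 1.004 (SE 0.32, adjusted p = 0.0667) by edgeR.

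Outside the cluster, the flanking genes described that had enough counts in GC B cells differed less there than most members. Those described on the Ifi203 side are Fh1 and Kmo, which overlap on opposite strands, so that without strand their shared reads cannot be told apart. Fh1 and Kmo lie 2249 to 2311 kb from the start of Aim2, far beyond the 592 kb cluster. They do not show how genes at its edge behaved in GC B cells. Fh1, the fumarate hydratase gene, fell in KO GC B cells (log2 fold change -0.22, SE 0.05, edgeR adjusted p = 3.63e-06) and did not pass in activated B cells (-0.04, SE 0.08, adjusted p = 0.828). Kmo, which encodes kynurenine 3-monooxygenase, rose in KO GC B cells (0.52, SE 0.06, edgeR adjusted p = 4.94e-19) and did not pass in activated B cells (0.04, SE 0.06, adjusted p = 0.773). On the Aim2 side 4933439K11Rik, Slamf8 and Dusp23 were testable only in activated B cells, and none passed with edgeR (adjusted p from 0.225 to 0.764).

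**Figure D5:**
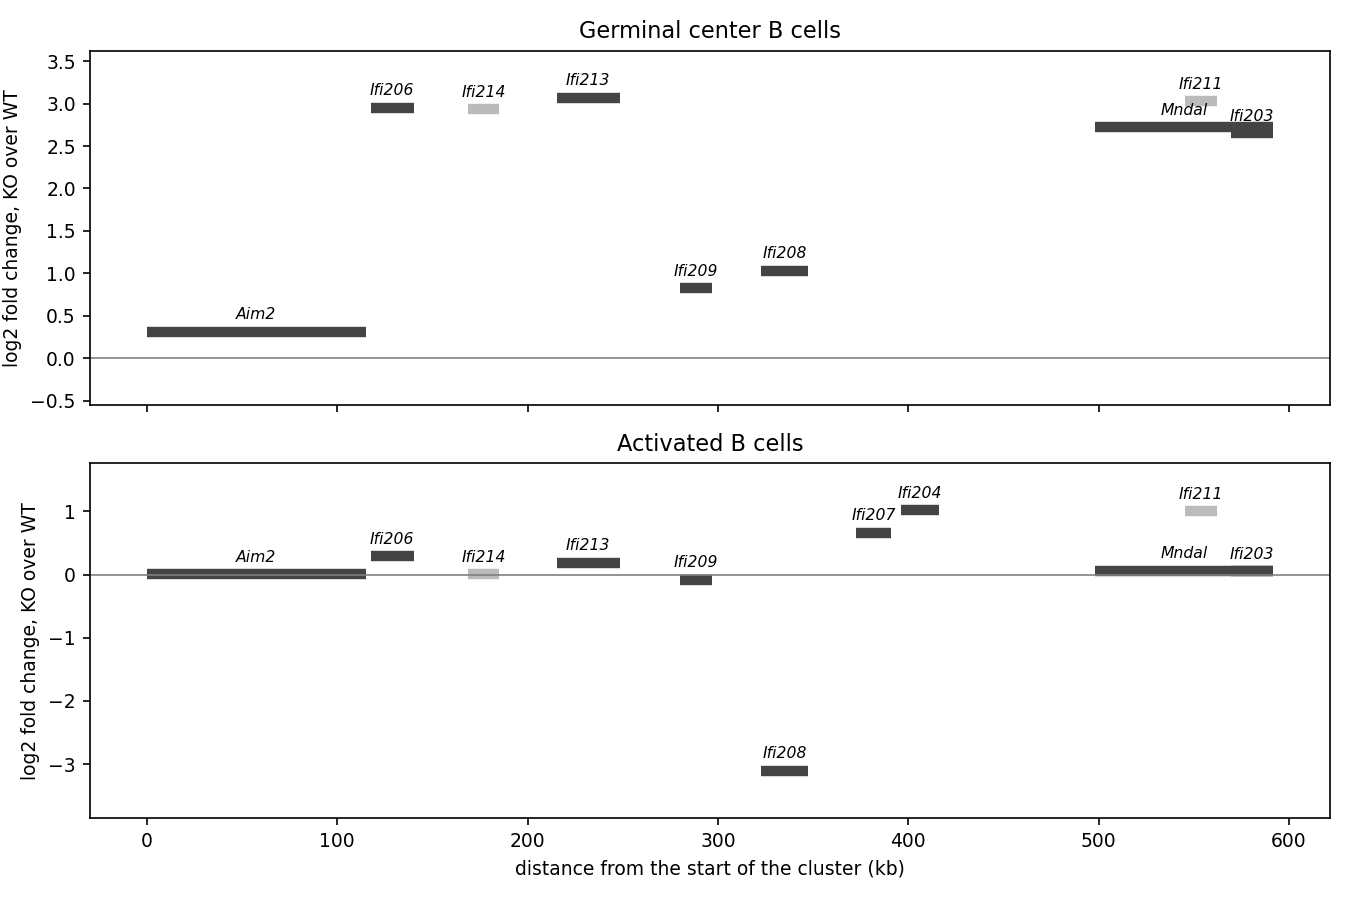
Log2 fold change of KO over WT for protein-coding genes of the cluster with enough counts, drawn over the span of each gene as distance in kb from the start of Aim2, with members in dark and other PYHIN genes in light grey. In GC B cells Aim2, Ifi209 and Ifi208 lie lower than the rest, and in activated B cells Ifi208 alone lies far below 0.

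Other genes were ranked by likeness to 3 members, as the root mean square difference of centred log2 CPM over the 8 libraries, among 9530 genes. Pseudogenes, predicted genes, immunoglobulin and T cell receptor segments and genes with a mean count under 50 were left out of this ranking. Nearest to Ifi203 were Ifi214 (0.116), itself a PYHIN gene, Bcl2 (0.141), which encodes a survival protein, and Pml (0.147), of the PML nuclear bodies. Pml averaged 220.1 ± 5.53 CPM in KO and 28.2 ± 3.21 CPM in WT GC B cells (SD, n = 2 each). Nearest to Mndal were Ddx58 (0.142), the gene of RIG-I, a sensor of viral RNA, Carmil1 (0.171) and the chemokine receptor gene Ccr6 (0.175). Ddx58 averaged 98.4 ± 0.533 CPM in KO and 15.7 ± 0.176 CPM in WT GC B cells, and 145 ± 8.77 CPM in KO and 127 ± 2.22 CPM in WT activated B cells (SD, n = 2 each). Ddx58 is also among the 9 genes outside the family whose promoter holds GAAATCGAAA. No gene among those ranked came close to Ifi208. The nearest, Rell1, differed by 0.882, and it averaged 21.4 ± 0.280 CPM in KO and 36.0 ± 0.824 CPM in WT activated B cells (SD, n = 2 each).

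Genes that work with the PYHIN proteins were read from lists written with earlier results of these data known. Of 12 inflammasome genes tested in GC B cells, 10 were higher in KO and 2 did not pass, where 25.1% of all genes tested were higher and 25.1% lower. Their median log2 fold change was 0.90, against -0.0044 over all genes. Gsdmd, which encodes the pore-forming gasdermin D, rose (1.03, SE 0.08, edgeR adjusted p = 3.28e-33), as did the bacterial sensor genes Naip5 (1.46, SE 0.17) and Naip2 (2.19, SE 0.29) and their partner Nlrc4 (0.59, SE 0.08). Among 16 genes tested in activated B cells, where 4.85% of all genes were higher, 2 were higher, Naip6 (0.68, SE 0.13, edgeR adjusted p = 0.000804) and the cytokine gene Il18 (0.95, SE 0.22, adjusted p = 0.00731), with a median of 0.20.

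Of 17 genes of cytosolic DNA sensing in GC B cells, 9 were higher in KO, 5 were lower and 3 did not pass, beside the same 25.1% of all genes in each direction. Their median log2 fold change was 0.13. Zbp1, a sensor of Z-form nucleic acid, rose (1.68, SE 0.12, edgeR adjusted p = 2.06e-45), as did the RNA editing gene Adar (0.87, SE 0.04) and Sting1 (0.996, SE 0.07), the adaptor for cyclic dinucleotides. Dhx9, a helicase gene, fell (-0.43, SE 0.04, edgeR adjusted p = 1.13e-28). Of the same 17 genes, 2 were higher in KO activated B cells, where 4.85% of all genes tested were higher, and the median was -0.03. These were Zbp1 (0.56, SE 0.09, edgeR adjusted p = 0.000234) and Adar (0.21, SE 0.06, adjusted p = 0.0217).

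Of 19 genes from the interferon receptors to the response element, 15 were higher in KO GC B cells, 2 were lower and 2 did not pass, again beside 25.1% of all genes in each direction. Their median log2 fold change was 0.60. Irf9 (1.25, SE 0.05, edgeR adjusted p = 3.2e-117) and Stat2 (0.70, SE 0.04), which encode subunits of the factor that binds the element, were among those that rose. So were Irf7 (1.33, SE 0.07), an interferon regulatory factor gene, and Ifnar1 (0.93, SE 0.07), a subunit of the type I interferon receptor. Of the same 19 genes, 3 were higher in KO activated B cells, where 4.85% of all genes tested were higher, and the median was 0.14. These were Irf7 (0.66, SE 0.09, edgeR adjusted p = 1.8e-05), Irf9 (0.31, SE 0.06, adjusted p = 0.00216) and the phosphatase gene Ptpn6 (0.21, SE 0.05, adjusted p = 0.0106).

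Markers of other cell states moved with genotype in the sorted GC B cells, beside the PYHIN genes. Of all genes tested in GC B cells, edgeR called 25.1% higher in KO and 25.1% lower. The 8 recirculating B cell markers, such as Ighd, all rose by edgeR and summed to 2238 to 2239 CPM in KO, against 644 to 645 CPM in WT. The 8 germinal center markers all fell and summed to 3601 to 3614 CPM in KO, against 5314 to 5439 CPM in WT. Of 11 monocyte and macrophage markers tested, 10 rose, and the list of 15 summed to 129 to 148 CPM in KO, against 46.5 to 46.7 CPM in WT, with Fcgr1 at 0 in WT. Lyz2, of the same list but also made by neutrophils, had 17 and 42 counts in KO, against 4 and 2 in WT. The 10 T cell markers summed to 234 CPM in both KO libraries, against 163 to 165 CPM in WT, with Cd3e at 0 in WT. Of 4 tested, Cd2 and Cd4 rose and Lck and Thy1 did not pass. Cd2 led the sum, at 142 CPM in KO and 71.7 CPM in WT on average, and Lck had 82.6 CPM in KO and 90.7 CPM in WT. Of 6 erythroid markers, the 5 tested all rose, with a median log2 fold change of 3.61, and the list summed to 58.2 to 71.2 CPM in KO, against 7.33 to 9.38 CPM in WT. The 6 B lineage markers were abundant in all groups, at 5959 to 7334 CPM in sum. The recirculating markers of activated B cells summed to 7067 to 7161 CPM in KO, against 6987 to 7053 CPM in WT. Of the 6 erythroid markers, 5 were higher in KO activated B cells, where 4.85% of all genes tested were higher. The erythroid list summed there to 853 to 1041 CPM in KO, against 588 to 597 CPM in WT. The part of these cells in the PYHIN values was not tested.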

How the data were processed

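Transcripts were counted in 8 libraries, and each file deposited by the authors gives raw counts, whole numbers per gene. The submitters' processing notes name Trimmomatic, DESeq2 and mm10. The aligner, counter and strand setting were not given in the sources used here. In each library 5 entries are summaries without a gene and were left out: 47.2% to 53.9% of all reads were in no feature, 1.12% to 1.26% ambiguous and 4.37% to 9.23% not uniquely aligned, so reads shared by similar PYHIN genes may be missing. Groups came from sample titles. Of 55401 identifiers, 55141 matched GENCODE M21 (a GRCm38 annotation) without version, which gave coordinates and exon lengths. The members and lists were chosen with earlier results of these data known. Of the 10 other PYHIN symbols listed, 5 were in the files by that symbol.

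KO and WT were compared within each cell type, and WT GC with WT activated B cells, from 4 libraries each. The difference of KO effects came from 1 fit over 8 libraries. Fits used edgeR 4.0.16 in R 4.3.3 (TMM, filterByExpr, quasi-likelihood), with Benjamini-Hochberg adjustment over all genes tested and calls at an adjusted p under 0.05. SE is the log2 fold change divided by the root of F. Levels use TMM over 8 libraries. Genes named are the members, Jmjd1c, the 3 genes most like each of Ifi203, Mndal and Ifi208 (mean count of at least 50), 3 flanking genes per side (1 is not reported here), and up to 4 genes per list with the lowest p. Alternatives were DESeq2 1.42.0 size factors and test, other filters, all 8 libraries in 1 fit, each library left out and a replicate block. The fits were tested on simulated data. For the difference of effects, 49% of 1.5-fold changes were recovered, against 62% to 74% in the other fits. False calls were 8.33% of its calls, more than the threshold of 0.05 aims at, against 1.95% to 4.67% in the other fits. Intervals (95%) cover counting error only. No replicates were identical, and their chi-square per gene was 1.38 to 2.28.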

Additional observations from a re-analysis of the deposited data

Results flagged for a closer look

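In 1 fit over all 8 libraries, the KO effect differed between GC and activated B cells in 8 members by edgeR at an adjusted p under 0.05. The log2 difference, GC minus activated, was 4.14 for Ifi208, 2.91 for Ifi207, 2.88 for Ifi213, 2.66 for Ifi206, 2.66 for Mndal, 2.59 for Ifi203, 0.90 for Ifi209 and 0.31 for Aim2. Ifi208 had called effects of opposite sign, 1.03 in GC B cells and -3.11 in activated B cells, and Ifi209 had 0.83 in GC B cells and -0.08, not called, in activated B cells. That of Ifi207 rests on 12 counts in KO and 1 count in WT GC B cells. The members were chosen with these effects known, so the values are a description. With 2 libraries per group, no test for a sample far from its group was made.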

How the results depend on the processing

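The members were chosen on their effects in these same libraries, so the tallies below describe the processing and are not support for the effects. Fold changes of the members kept direction and side of the threshold in all 69 alternative values in GC B cells and all 88 in the WT comparison. For the difference of effects 111 of 115 did so. In activated B cells 81 of 90 kept their side of the threshold; Aim2, not called, ranged from -0.05 to 0.04 and took either sign, and each other member kept its direction. DESeq2 called 4342 genes in GC B cells, 349 in activated B cells and 3069 for the difference of effects, against 6698, 885 and 4685 by edgeR, and 0 members higher in activated B cells (3 by edgeR, and 4 with DESeq2 at an unadjusted p under 0.05). With no filter, 465 genes were called in activated B cells. The samples share only a replicate number: same-numbered libraries deviated with correlations of -0.0352 to 0.0099. With the replicate block 1388 genes were called in activated B cells. Ifi213 passed there (log2 fold change 0.19), as it did with all 8 libraries (0.18). Without KO replicate 1, the log2 fold change in activated B cells was 0.25 for Ifi206 and 0.63 for Ifi207. The call of Ifi207 was lost with no filter, and without WT replicate 1 its log2 fold change was 0.50. Its difference of effects ranged from 1.93 to 5.17 and was lost with DESeq2 and without GC KO replicate 1, GC WT replicate 2 or activated WT replicate 2. With the longest transcript as length, Ifi203 took 15.4% in KO and 8.25% in WT GC, and 22.3% in KO and 21.8% in WT activated B cells. Ifi208 then took 0.428% in KO and 0.701% in WT GC, and 0.220% in KO and 1.92% in WT activated B cells. With that length Mndal, not Ifi209, took the largest share in activated B cells. The shorter motif GAAANNGAA was found in the same 6 members. Depth limits Ifi204 and Ifi207 in GC B cells.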
